A study of Mus musculus with 2 samples.

Results

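The histone cluster genes are the 67 genes of the mouse annotation, among 31053 counted, whose symbols begin with Hist1h, Hist2h, Hist3h or Hist4. Membership was set by symbol alone, though the set was picked with earlier results of these data known. Raw counts of unique molecular identifiers (UMIs) were followed in cell types gated on marker genes. Each type was split into cells with 4 or more UMIs of Mki67 and Top2a together and cells with 0. Mki67 encodes the proliferation antigen Ki-67 and Top2a a topoisomerase that acts on replicated DNA, and both mark dividing cells.

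MTC-Q1 cells, from a mouse cancer of the mouth, had grown for 2 weeks as tumours under the skin of C57BL/6 mice. One group of tumours was MTC-Q1 WT and the other MTC-Q1 miR-21 KO, in which the cancer cells lack the microRNA miR-21; every mouse also received cisplatin at 5 mg/kg, and cells were taken 72 h later. Dead cells were removed, CD45+ cells were kept on magnetic beads, and each group gave 1 droplet library of transcript 3′ ends. No source ties the library number in a barcode to a group, so library 1 and library 2 are given side by side and no direction between WT and KO is drawn; how many mice or tumours went into each library is not known here.

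Histones are the proteins around which DNA is wound. A pair each of H2A, H2B, H3 and H4 forms the core of the nucleosome, and H1 binds the linker DNA between cores. Most genes in the histone clusters are transcribed when DNA replicates, and their mRNAs end in a conserved stem-loop that the stem-loop binding protein recognises, in place of a poly(A) tail; some members also give polyadenylated mRNA, and droplet libraries of 3′ ends are primed on poly(A).

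The members lie in 4 places of the GRCm38 genome. Chromosome 13 holds 54 of them in a block of 23 genes at chr13:21715763-22043676 and a block of 31 genes at chr13:23531050-23934851. Chromosome 3 holds 10 (the Hist2h genes, chr3:96219865-96270132), chromosome 11 holds 2 (Hist3h2a and Hist3h2ba, chr11:58948920-58956830) and chromosome 6 holds Hist4h4 (chr6:136801553-136804415). By protein, 6 members encode H1, 18 H2A, 18 H2B, 12 H3 and 13 H4.

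The stem-loop was looked for on the sense strand of the GENCODE transcript models as a 6-base stem with its inner bases paired around a 4-base loop, spelled GG, any 2 bases, CTT, any base, T, any base, AG, any 2 bases, CC. It was present in the models of 46 members and in 9 of 21834 other protein-coding genes (0.0412%). Of the 21 member models without it, 13 ran only from start to stop codon and so do not reach its place. The commonest form was shared by 26 members, and an H4 form by 7. The stem-loops below, in capitals with up to 5 bases of the mRNA on each side, are those of members on which the results turn; Hist1h2ap, Hist1h2ae, Hist1h3c and Hist1h4d were among the steepest or most abundant in cells with Mki67 and Top2a, and the last 3 were among the flattest.

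Hist1h2ap: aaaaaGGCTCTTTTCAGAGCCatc

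Hist1h2ae: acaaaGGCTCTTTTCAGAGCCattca

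Hist1h3c: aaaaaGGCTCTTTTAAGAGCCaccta

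Hist1h4d: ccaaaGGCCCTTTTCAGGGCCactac

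Hist1h1c: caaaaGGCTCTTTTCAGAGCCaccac

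Hist3h2a: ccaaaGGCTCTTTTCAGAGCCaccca

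Hist4h4: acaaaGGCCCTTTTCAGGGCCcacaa

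The Hist1h1c and Hist3h2a stem-loops have the same letters as those of Hist1h2ap and Hist1h2ae. The models differ in the stretch after it. The Hist1h2ap model stops 3 bases past the stem-loop and the Hist1h3c model 74 bases past it, while Hist1h2ae runs on for 151 bases, with AATAAA near its end, and Hist1h4d for 770. The models of Hist1h1c, Hist3h2a and Hist4h4 run on for 840, 1643 and 2445 bases, and each holds the polyadenylation signal AATAAA in its last 40 bases, as do 11 of the 67 models.

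After filters, library 1 held 4977 cells with a median of 6999 UMIs and library 2 held 6741 cells with a median of 14802; 8 barcode sequences occur in both libraries. Gated T cells numbered 3253 and 1315, NK cells 131 and 878, and macrophages 346 and 1878 in libraries 1 and 2. T cells carried Cd3d and Cd3e at 1146 and 1335 counts per 1000000 UMIs (CPM), NK cells carried Ncr1 at 273 and 231 CPM, and macrophages carried C1qa at 6741 and 8056 CPM. A further gate of 85 and 477 cells was rich in collagen mRNA (Col1a1 at 3129 and 1415 CPM) and held the CD45 gene Ptprc at only 11.2 and 16.6 CPM, so its cells go against the CD45+ label; it is called collagen-rich and is given beside the immune types. Cells with 4 or more Mki67 and Top2a UMIs made up 2.92% and 42.0% of T cells, 16.8% and 31.8% of NK cells, 13.3% and 16.1% of macrophages and 27.1% and 36.5% of collagen-rich cells. With 1 library per group and cells that are not replicates, no test was possible. Ranges in parentheses after a value are 95% intervals of the counting error alone, and CPM compares a gene between groups of cells and not one gene with another.

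Over all cells kept, members took 238909 UMIs, 0.128% of the total. Hist1h2ap, an H2A gene, took 40089, Hist1h2ae, another H2A gene, 33845 and Hist1h1b, an H1 gene, 26431, so that 3 members held 42.0% of the member UMIs. The 30 most counted members held 93.5%, 60 members had at least 100 UMIs, and 3 (Hist1h2aa, Hist1h2ba and Hist1h2bq) had 0. Hist1h2aa and Hist1h2ba are known as testis histone genes. By protein, H2A genes gave 42.8% of member UMIs, H1 genes 23.2%, H4 genes 12.7%, H2B genes 12.1% and H3 genes 9.16%.

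Cells with 4 or more Mki67 and Top2a UMIs held many times more histone mRNA than cells with 0 in T cells, NK cells, macrophages and collagen-rich cells of both libraries. Summed members reached 6966 CPM in such T cells of library 1, against 414 CPM in T cells with 0, a ratio of 16.8 (16.4 to 17.3). In library 2 the T cell levels were 5477 and 336 CPM, a ratio of 16.3 (15.5 to 17.2). NK cells had 6707 against 446 CPM in library 1 and 4807 against 343 CPM in library 2, log2 ratios of 3.91 and 3.81. In both types the levels of library 1 were above those of library 2 in either state, and the ratios were close.

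Macrophages reached lower levels: 2138 against 230 CPM in library 1 and 2268 against 244 CPM in library 2, a ratio of 9.28 and 9.29. Collagen-rich cells had 2201 against 280 CPM and 1480 against 213 CPM, ratios of 7.85 and 6.96. In library 2, the dendritic cell gates with few dividing cells lay between or above these, with 5200 against 268 CPM in 17 and 20 cells of the cDC1 gate and 2978 against 269 CPM in 16 and 117 cells of the cDC2 gate. Library 2 monocytes had 2834 CPM in 13 cells with 4 or more and 259 CPM in 774 with 0. Types with 1 cell of 4 or more had no clear order, with 191 against 282 CPM in library 1 monocytes and 455 against 365 CPM in library 2 plasmacytoid dendritic cells. B cells were gated only in library 1, where 408 cells with 0 had 477 CPM and 4 cells with 4 or more had 2880 CPM.

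The T cells on either side of this split were not the same kinds of T cell. In library 1, 2442 of the 2808 T cells with 0 were naive-type by a marker list that includes Ccr7, Lef1 and Tcf7, and 12 of the 95 with 4 or more were. Within regulatory T cells of library 1 the levels were 6685 and 369 CPM, and within the other T cells that fit no narrower gate they were 7018 and 380 CPM. In library 2, CD8 T cells that were not naive-type had 5273 and 327 CPM. These ratios were 18.1, 18.5 and 16.1, beside 16.8 and 16.3 over all T cells of libraries 1 and 2. Other T cells of library 2 had 20.7 (18.9 to 22.7). CD8 T cells that were not naive-type had 19.1 in library 1, with 18 cells of 4 or more. Naive-type T cells had 14.7 and 13.3 in libraries 1 and 2, with 12 and 14 cells of 4 or more. In library 2 the ratio was smaller within regulatory T cells, at 10.4 with 29 and 15 cells, and within gamma-delta T cells, at 10.2.

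**Figure D1:**
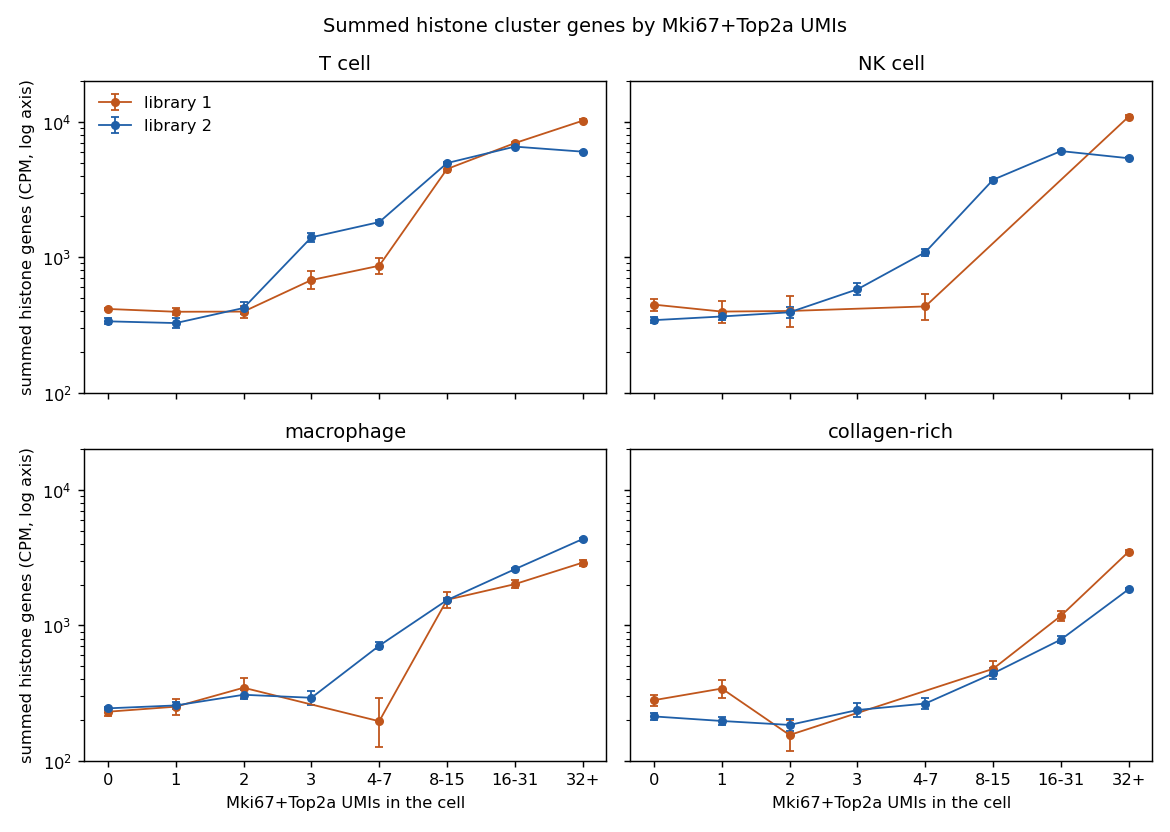
Summed CPM of the 67 members (log axis) by the number of Mki67 and Top2a UMIs in a cell, for 4 gated types; points are sums over at least 5 cells of 1 library, bars are 95% counting intervals. T cells have 326 to 421 CPM up to 2 UMIs and at least 4480 CPM from 8 UMIs on.

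The histone level did not follow the first Mki67 and Top2a molecules. T cells of library 1 had 395 CPM with 1 UMI, 396 with 2, 678 with 3 (20 cells), 864 with 4 to 7 (16 cells) and 4480 with 8 to 15 (14 cells). In library 2 the same steps gave 326, 421, 1402, 1816 and 4956 CPM. At 32 or more UMIs the T cells of library 1 had 10185 CPM and those of library 2 had 6015 CPM. Macrophages of library 2 went from 292 CPM at 3 UMIs to 708 at 4 to 7, 1538 at 8 to 15 and 4345 at 32 or more. Deeper cells reach a raw UMI limit more easily: the median T cell of library 1 had 19396 UMIs with 4 or more and 6209 with 0.

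Single cells with 4 or more Mki67 and Top2a UMIs differed widely in histone mRNA. Per 10000 UMIs, T cells of library 2 had a lower quartile of 14.7 member UMIs, a median of 52.1 and an upper quartile of 88.5. In macrophages of library 2 these were 3.51, 12.5 and 34.3. Their lower quartile lies near the upper quartile of macrophages with 0, which was 3.24. So in macrophages of library 2 a share of the cells that carry the division markers had no more histone mRNA than some cells without them.

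Member by member, the same direction was nearly general. A member was called past the 2-fold limit when its ratio was at least 2, its interval lay beyond 1.5 and the pair of groups held at least 50 of its UMIs; a member can reach those 50 UMIs through the group in which it is high, so the counts describe and do not support. In T cells of library 1, 38 of 42 members with enough UMIs were past the limit in cells with 4 or more, against 18.6% of all 9585 genes tested, and 0 members were lower (3.4% of genes). In library 2 there were 49 of 52, against 5.74% of genes, and 0 lower (0.43%). All 38 of library 1 were also past the limit in library 2, an overlap that was not counted over all genes. The median member log2 ratio was 3.72 and 3.46, against 0.29 and 0.04 over all genes.

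NK cells had 19 of 20 members past the limit in library 1 (5.62% of genes) and 41 of 44 in library 2 (5.65% of genes), with 0 lower (3.58% and 0.506% of genes). Macrophages had 13 of 17 (5.19% of genes) and 31 of 37 (6.42%), and 2 members lower in each library (1.38% and 0.635% of genes). Collagen-rich cells had 14 of 17 (10.6% of genes) and 35 of 38 (7.9%), and 1 lower in each (11.4% and 10.4%). Of 15 members with enough UMIs in T cells, NK cells and macrophages of both libraries, 13 were past the limit in all 6 comparisons. The share of all genes past it in all 6 was not taken, so this count only describes.

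**Figure D2:**
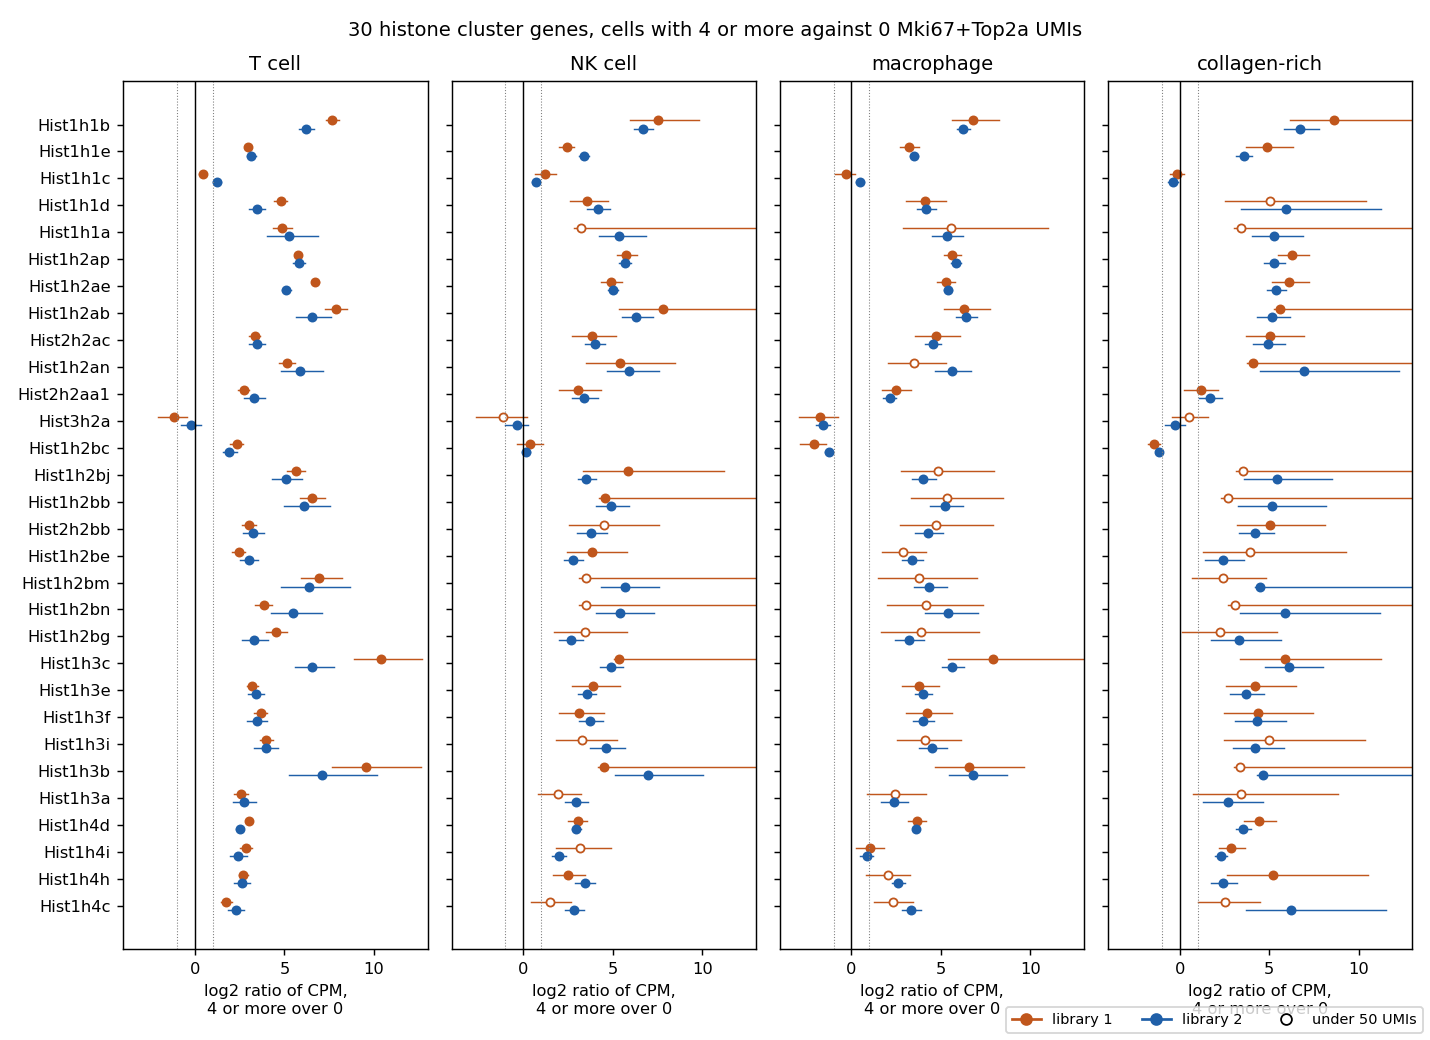
Log2 ratio of CPM between cells with 4 or more and 0 Mki67 and Top2a UMIs for the 30 most counted members, ordered by protein; lines are 95% counting intervals, open points have under 50 UMIs and dotted lines mark 2-fold. Where the cells with 0 hold no UMI the point takes 3 counts in place of 0, and its line runs from the lower interval limit to the edge. Hist3h2a and Hist1h2bc lie at or left of 0 in macrophages.

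Among linker histone genes, Hist1h1b separated the states most. It stood at 615 against 3.04 CPM in T cells of library 1 and at 768 against 10.3 CPM in library 2, log2 ratios of 7.66 (7.30 to 8.05) and 6.22 (5.81 to 6.67). In macrophages it stood at 172 against 1.59 CPM and 315 against 4.16 CPM. Hist1h1e was less steep, at 260 against 32.9 CPM and 278 against 31.3 CPM in T cells, log2 ratios of 2.98 and 3.15. Hist1h1d had log2 ratios of 4.79 and 3.46 and Hist1h1a of 4.87 and 5.24 in T cells. The sixth gene, the testis linker histone Hist1h1t, had 3 UMIs in all cells.

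Hist1h1c had the smallest ratios of the 5 linker genes with enough UMIs in T cells, and its calls differed between types. In macrophages it stood at 27.6 against 34.6 CPM in library 1 and 41.2 against 29.7 CPM in library 2, and in collagen-rich cells at 59.1 against 65.3 CPM and 24.1 against 31.5 CPM; none of the 4 pairs was past the limit. NK cells had 107 against 45.8 CPM, past the limit, in library 1 and 74.7 against 45.1 CPM, not past it, in library 2. In T cells it stood at 115 against 85.7 CPM in library 1 and 88.9 against 37.9 CPM in library 2, log2 ratios of 0.43 (0.22 to 0.62), not past the limit, and 1.23 (0.99 to 1.47), past it. Naive-type T cells with 0 had 91.3 CPM of Hist1h1c there, the other T cells with no narrower name 51.2 CPM, and within the latter the level was 117 CPM with 4 or more, a log2 ratio of 1.19 (0.67 to 1.72). The part of the mix of T cells in the ratio of library 1 was not tested.

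Among H2A genes, Hist1h2ap and Hist1h2ae carried most of the difference. Hist1h2ap stood at 2126 against 39.8 CPM in T cells of library 1 and 1036 against 18.4 CPM in library 2, so that the log2 ratio was 5.74 and 5.81 although the levels of the libraries differed. Macrophages had 545 against 11.1 CPM and 358 against 6.29 CPM, log2 ratios of 5.62 and 5.83. Hist1h2ae stood at 1069 against 10.1 CPM and 906 against 26.5 CPM in T cells, log2 ratios of 6.73 and 5.09. Hist1h2ab was rarer and as steep, at 291 against 1.25 CPM and 202 against 2.19 CPM in T cells. Hist2h2ac, Hist1h2an and Hist2h2aa1 had T cell log2 ratios between 2.72 and 5.85 in both libraries.

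Hist3h2a was the H2A gene that went the other way. In macrophages it stood at 7.10 CPM in cells with 4 or more and 24.0 CPM in cells with 0 in library 1, and at 9.18 and 27.3 CPM in library 2, log2 ratios of -1.76 (-2.93 to -0.77) and -1.57 (-1.98 to -1.19). T cells had 7.31 and 16.6 CPM in library 1 and 7.49 and 8.77 CPM in library 2, neither past the limit. With dividing cells at about the same 7 to 9 CPM in both types and libraries, the types differed in the cells with 0.

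H2B genes were mostly steep. Hist1h2bj, Hist1h2bb and Hist1h2bm had T cell log2 ratios of 5.62, 6.53 and 6.94 in library 1 and 5.06, 6.11 and 6.36 in library 2. Hist1h2bn and Hist1h2bg had 3.84 and 4.52 in library 1, Hist2h2bb had 3.03 and Hist1h2be had 2.44. In macrophages of library 2 these 7 members were all past the limit, with log2 ratios of 3.22 to 5.40.

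Among H2B genes Hist1h2bc was lower with 4 or more in some types and higher in T cells. Hist3h2ba stood at 2.19 CPM in both states of macrophages of library 2 and was not past the limit there. T cells had 11.7 against 7.14 CPM of it in library 1, not past the limit. In library 2 they had 5.66 against 1.10 CPM, past it, from 62 and 5 UMIs. In T cells Hist1h2bc stood at 49.2 against 9.70 CPM in library 1 and 50.8 against 13.4 CPM in library 2, log2 ratios of 2.34 (1.98 to 2.70) and 1.93 (1.54 to 2.33). In NK cells it stood at 50.4 against 38.6 CPM and 63.4 against 56.3 CPM, neither past the limit. In macrophages it was lower in cells with 4 or more, at 14.2 against 60.8 CPM and 33.2 against 78.5 CPM, log2 ratios of -2.10 (-2.88 to -1.40) and -1.24 (-1.45 to -1.04). Collagen-rich cells had 50.6 against 138 CPM and 43.8 against 98.0 CPM. The direction in T cells was opposite to that in macrophages in both libraries; the difference was not tested.

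The Hist1h2bc levels of macrophages of library 2 were stepwise: 78.5 CPM with 0 Mki67 and Top2a UMIs, 67.3 with 1 to 3, 34.3 with 4 to 15 and 32.3 with 16 or more. The summed macrophage markers were 22552 CPM in cells with 0 and 18416 CPM in cells with 4 or more, and 16342 and 15082 CPM in library 1. The monocyte markers were 1894 and 1874 CPM in library 2 and 2521 and 1728 CPM in library 1. In the collagen-rich gate the fibroblast markers differed far more, at 15342 against 4574 CPM in library 1 and 13893 against 2891 CPM in library 2 for cells with 0 against 4 or more. The part of these markers in the Hist1h2bc values was not tested.

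By ratio, the 2 steepest members in T cells of both libraries encode H3. In library 2 this rank is not separated by the intervals. There Hist1h2ab had 6.52 (5.64 to 7.59) beside 6.56 (5.58 to 7.78) for Hist1h3c. Hist1h2af, an H2A gene, had 415 and 0 UMIs in T cells of library 2, so its 5.85 comes from the floor of 3 counts. Hist1h3c had 406 UMIs in 95 T cells with 4 or more and 3 in 2808 T cells with 0 in library 1, a log2 ratio of 10.42 (8.86 to 12.70), and stood at 166 against 1.75 CPM in library 2, a log2 ratio of 6.56. Hist1h3b had 148 and 2 UMIs in library 1, a log2 ratio of 9.55 (7.67 to 12.61), and 7.10 (5.24 to 10.15) in library 2. Hist1h3e, Hist1h3f, Hist1h3i and Hist1h3a had 2.57 (Hist1h3a) at the least in library 1 and 2.74 to 3.95 in library 2. In macrophages Hist1h3c and Hist1h3b had 7.90 and 6.56 in library 1 and 5.64 and 6.81 in library 2, against 3.79 for Hist1h3e in library 1. By ratio, H3 genes did not lead everywhere. Hist1h2af was highest in macrophages of library 2, at 7.45 (5.57 to 10.51). Hist1h2ab led in NK cells of library 1 at 7.83 and Hist1h1b in collagen-rich cells of library 1 at 8.65. Cells with 0 held only 2, 1 and 1 UMIs of these 3 genes. The interval of Hist1h3b in macrophages of library 2 (5.42 to 8.70) overlapped that of Hist1h2af. Hist1h3c had 104 and 0 UMIs in NK cells of library 1, so its 5.37 comes from the floor of 3 counts. In T cells with 0, Hist1h3c and Hist1h3b were at 1.75 CPM or less in both libraries, while the other 4 H3 genes named were at 4.60 CPM or more.

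H4 genes had the smallest median log2 ratio of the 5 classes in T cells, 2.25 over 8 members in library 1 and 2.51 over 11 in library 2, against 3.46 to 5.39 for the other classes. The median in macrophages of library 2 was 2.60 over 5 H4 members and 4.02 over 9 H2B members, but in collagen-rich cells of library 1 H2B had the smallest, 1.81 over 2 members. Hist1h4d stood at 326 against 39.4 CPM and 278 against 48.9 CPM in T cells, log2 ratios of 3.05 and 2.51. Hist1h4h had 2.71 and 2.61, Hist1h4i 2.83 and 2.43, and Hist1h4c 1.74 and 2.29. In macrophages Hist1h4i stood at 19.7 against 9.51 CPM and 16.3 against 8.97 CPM, not past the limit in either library. Hist4h4, outside the large cluster, stood at 5.36 against 11.6 CPM in T cells of library 1 and 6.03 against 3.29 CPM in library 2, so it had no common direction.

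The make-up of histone mRNA therefore differed between the states. In T cells of library 1, H2A genes gave 56.7% of member UMIs with 4 or more and 24.3% with 0, while H4 genes gave 9.23% and 26.2%. In macrophages of library 2, H2A genes gave 46.9% and 23.1% and H2B genes 7.78% and 36.9%. Collagen-rich cells with 0 took 50.9% and 48.8% of their member UMIs from H2B genes, of which Hist1h2bc was the most counted.

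Members whose models ended soon after the stem-loop were steeper than members whose models ran on. With under 100 bases after it, the median log2 ratio was 5.74 and 5.06 in T cells, 4.58 and 4.90 in NK cells, 5.96 and 4.49 in macrophages and 5.39 and 4.65 in collagen-rich cells of libraries 1 and 2. With 100 or more it was 2.60 and 2.97, 3.35 and 3.18, 3.65 and 3.28, and 4.38 and 3.46. In macrophages of library 2, where 6.42% of all genes were past the limit, so were 12 of 12 members of the first kind and 11 of 16 of the second. Members with no stem-loop in the model followed neither kind: there 8 of 9 were past it, with a median of 5.32, and their medians in T cells were 4.43 and 4.03. The member of these 9 that was not past it in macrophages of library 2 was Hist1h2bc, at -1.24. Its model holds neither the stem-loop nor AATAAA in its last 40 bases. Exceptions lie on both sides: Hist1h2ae, with 151 bases after the stem-loop and AATAAA at its end, was among the steepest, and Hist2h2aa1, with 35, had log2 ratios of 2.51 and 2.13 in macrophages. Both kinds had 23 members, the models may differ from those used for counting, and the points are genes of the same libraries, so no test was made.

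**Figure D3:**
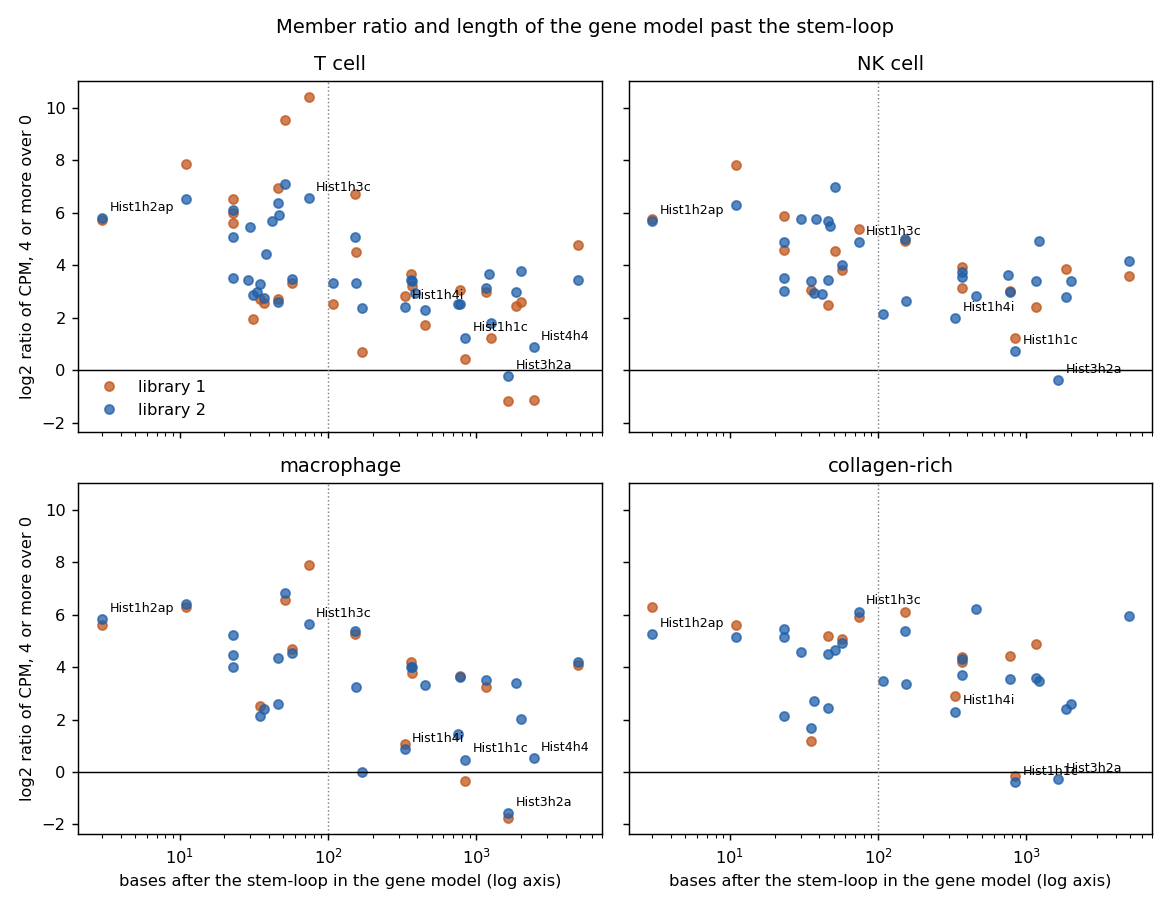
Log2 ratio of each member with at least 50 UMIs (cells with 4 or more over 0 Mki67 and Top2a UMIs) against the bases its gene model holds after the stem-loop (log axis, dotted line at 100), for 4 gated types and both libraries. Hist3h2a, Hist1h1c and Hist4h4, with 840 to 2445 bases, lie lowest in T cells, and Hist1h2ap, with 3, lies high.

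Many H2A and H2B genes stand back to back. 13 pairs of members start within 1000 bases of each other on opposite strands, 176 to 660 bases apart. In T cells of library 2, both members of 8 of 8 pairs with enough UMIs were past the limit, and in library 1 both of 5 of 5. Of single members there, 49 of 52 and 38 of 42 were past it, against 5.74% and 18.6% of all genes. The pair counts thus add little to those of single members. In NK cells, macrophages and collagen-rich cells of library 2 the pair counts were 6 of 7, 3 of 4 and 4 of 5. Single members gave 41 of 44, 31 of 37 and 35 of 38, against 5.65%, 6.42% and 7.9% of all genes. The pair that was not shared was each time Hist1h2ac with Hist1h2bc. In macrophages of library 2 Hist1h2ac had a log2 ratio of 2.02 and Hist1h2bc one of -1.24, and in collagen-rich cells 2.57 and -1.16.

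The stretches between the starts of a pair that moved together and of this pair are shown, read on the plus strand from the RefSeq promoter windows of GRCm38.p6, with matches to CCAAT, ATTTGCAT (the octamer of H2B promoters) and TATAAA in capitals on either strand. The first is chr13:23571221-23571395, between Hist1h2ae on its left and Hist1h2bg on its right, and the second chr13:23683960-23684198, which ends 1 base before the Hist1h2bc start and lies to the right of Hist1h2ac.

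Hist1h2ae and Hist1h2bg: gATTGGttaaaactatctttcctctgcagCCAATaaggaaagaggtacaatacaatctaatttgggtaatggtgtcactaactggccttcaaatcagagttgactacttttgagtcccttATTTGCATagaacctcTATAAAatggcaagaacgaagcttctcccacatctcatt

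Hist1h2ac and Hist1h2bc: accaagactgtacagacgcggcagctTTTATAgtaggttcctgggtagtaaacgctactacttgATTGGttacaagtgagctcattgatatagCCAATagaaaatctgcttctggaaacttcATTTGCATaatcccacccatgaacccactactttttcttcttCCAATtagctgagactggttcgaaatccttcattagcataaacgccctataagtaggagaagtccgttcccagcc

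Both stretches hold 1 octamer and 1 TATAAA, and they hold 2 and 3 CCAAT. RefSeq promoter windows, 250 bases before to 50 after the start, were matched for 62 members. CCAAT on either strand was in 85.5% of them against 37.9% of all 27025 promoters, ATTTGCAT in 13 of 62 members against 1.75% and TATAAA in 56.5% against 14.2%. CCAAT was in 18 of 18 H2A, 16 of 16 H2B, 10 of 10 H3 and 6 of 6 H1 promoters and in 3 of 12 H4 promoters, and the octamer was only in H2A and H2B windows, which overlap in the back-to-back pairs. These are matches of letters and not sites.

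In cells with 0 Mki67 and Top2a UMIs, members still differed between types. Hist1h2bc was highest in collagen-rich cells at 138 and 98.0 CPM, followed by macrophages at 60.8 and 78.5 CPM and NK cells at 38.6 and 56.3 CPM, and lower in monocytes at 19.4 and 24.0 CPM and T cells at 9.70 and 13.4 CPM. The order of these 5 types was the same in both libraries. Macrophages exceeded T cells 6.26-fold (5.16 to 7.61) and 5.87-fold (4.55 to 7.72), and monocytes 3.13-fold and 3.27-fold. Neighbours in the order were separated by their intervals in library 2; in library 1 the NK cell interval (26.4 to 54.5) met those of macrophages (53.2 to 69.2) and monocytes (12.6 to 28.6).

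Hist3h2a had another order, with 38.2 CPM in B cells, 30.2 and 29.6 CPM in monocytes and 24.0 and 27.3 CPM in macrophages, and 8.09 and 7.21 CPM in collagen-rich cells. Plasmacytoid dendritic cells of library 2 had the highest value, 61.6 CPM, from 15 UMIs in 30 cells. Hist1h1c was highest in naive-type T cells of library 1 at 91.3 CPM and B cells at 75.5 CPM, while in library 2 cDC2 led at 53.5 CPM and 31 naive-type T cells had 39.5 CPM. Free RNA in the droplets, estimated from markers that each type should lack, gave 1.11% to 5.98% of UMIs in the 4 main types and would account for 0.32 to 3.29 CPM of Hist1h2bc and 0.20 to 0.80 CPM of Hist3h2a. For Hist1h2ap it would account for 2.15 to 13.3 CPM, against at most 39.8 CPM measured in cells with 0. In macrophages of library 2 the measured 6.29 CPM of Hist1h2ap was below the 13.3 CPM of free RNA. The estimate gave free RNA the mean make-up of its library, and for this gene it was too high in those cells.

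**Figure D4:**
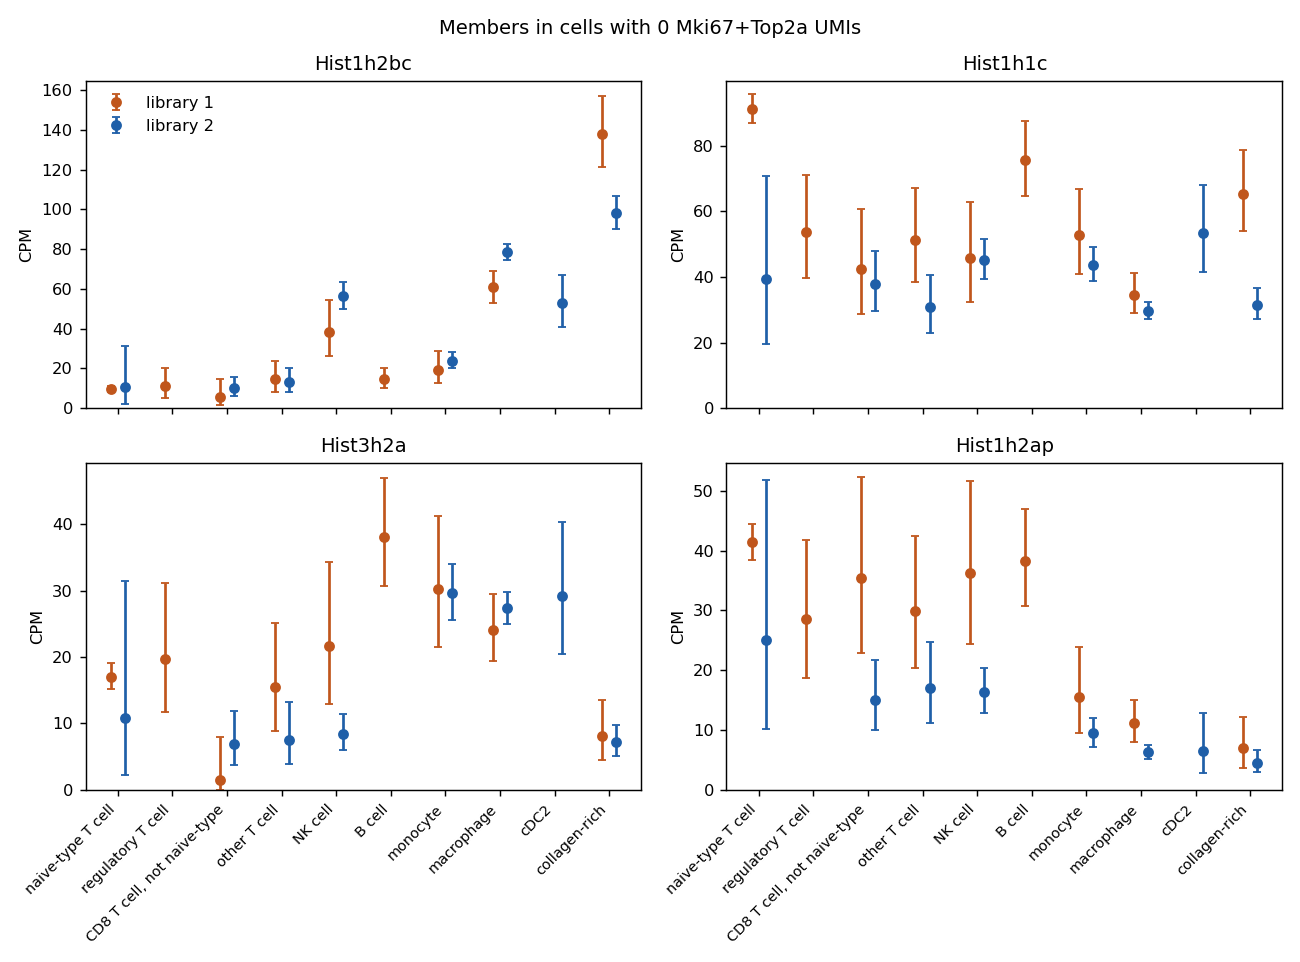
CPM of Hist1h2bc, Hist1h1c, Hist3h2a and Hist1h2ap in cells with 0 Mki67 and Top2a UMIs, by gated type and library, with 95% counting intervals; types with under 20 such cells in a library are left out. Hist1h2bc runs from 5.66 CPM in CD8 T cells of library 1 that were not naive-type to 138 CPM in collagen-rich cells. Among the types drawn, Hist3h2a is highest in B cells of library 1 and monocytes of library 2. Plasmacytoid dendritic cells, cDC1, migratory dendritic cells and gamma-delta T cells are not drawn.

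Cells with 4 or more Mki67 and Top2a UMIs were ranked by the balance of S phase genes (25 genes such as Mcm2 and Pcna, which act in DNA replication) against mitosis genes (20 genes such as Ccnb1 and Plk1) and cut into 3 equal parts. In library 2 the middle part had the highest summed histone level in T cells, at 7513 CPM, against 4875 CPM in the part with most S phase and 3983 CPM in the part with most mitosis UMIs. NK cells had 6943, 4718 and 2760 CPM, and macrophages 3116, 2300 and 1416 CPM in the same order. Collagen-rich cells had 1634, 2101 and 732 CPM, so there the S phase part was highest by the sum, while the median cell was higher in the middle part, at 7.35 against 6.63 member UMIs per 10000. In library 1 the T cells were ordered otherwise, with 7658, 3791 and 9472 CPM in parts of 31 to 32 cells. This order rests on the sum: the median cell had 83.6 member UMIs per 10000 in the middle part and 77.4 in the mitosis part. The parts were cut within each type and library, so parts of the same name cover unlike ranges. The mitosis part of T cells reached a log2 balance of S phase over mitosis UMIs of 0.42 in library 1 and -0.58 in library 2. The middle part ran from 0.46 to 2.03 and from -0.58 to 0.82. The orders of the 2 libraries are thus not those of like parts. The other types had under 20 cells a part. The S phase part of library 1 T cells had a median of 5.80 member UMIs per 10000 and an upper quartile of 75.5, so most of its cells were low.

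**Figure D5:**
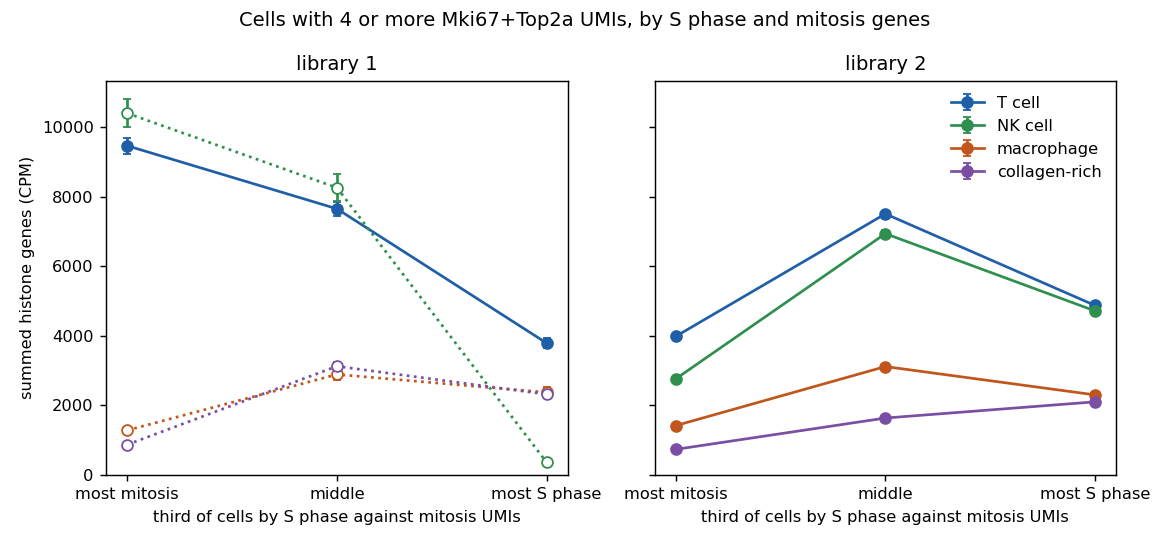
Summed CPM of the 67 members in cells with 4 or more Mki67 and Top2a UMIs, cut into 3 equal parts by S phase against mitosis UMIs, by gated type and library; bars are 95% counting intervals and open points with dotted lines mark parts with under 20 cells. The middle part is highest in T cells, NK cells and macrophages of library 2, and the mitosis part in T cells of library 1. Parts were cut within each type and library and cover unlike ranges of the balance.

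S phase genes without Mki67 and Top2a did not come with histone mRNA near the level of cells with 4 or more. T cells of library 2 with 0 Mki67 and Top2a UMIs and at least 10 S phase UMIs per 10000 numbered 115 and had 311 CPM of members, against 347 CPM in the 228 with under 5. NK cells had 306 CPM (97 cells) and 331 CPM, and macrophages 137 CPM (48 cells) and 249 CPM. In T cells of library 1 the values were 446 (411 to 482) and 418 (407 to 430) CPM.

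Other genes of histone supply changed less than the members. The stem-loop binding protein gene Slbp stood at 263 against 131 CPM and 245 against 124 CPM in T cells and 94.6 against 37.2 CPM in macrophages of library 2, where alone of these 3 it was past the limit. Of 15 genes for histone transcription, mRNA processing and chaperones, 7 of 14 with enough UMIs were past the limit in T cells of library 1, 3 of 14 in library 2, and 7 of 13 and 11 of 14 in macrophages. Beside these counts and those that follow, 18.6% and 5.74% of all genes were past it in T cells of libraries 1 and 2. In macrophages the shares were 5.19% and 6.42%. Of 11 histone variants outside the clusters, 5 of 9 and 4 of 9 were past it in T cells and 4 of 9 in macrophages of each library. These included H2afz, the H2A.Z gene, at 1849 against 497 CPM, and H2afx, the H2A.X gene, at 251 against 49.1 CPM in T cells of library 1, while H3f3b, which makes the replacement histone H3.3, stood at 1766 against 2254 CPM. No gene of the 4 lists was lower past the limit in these types, against 3.4% and 0.43% of all genes in T cells and 1.38% and 0.635% in macrophages. S phase genes were past it in 24 of 25 and 20 of 25 and mitosis genes in 20 of 20 and 20 of 20 in T cells.

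Over 34 groups of cells (type, library and Mki67 and Top2a class), the gene outside the clusters whose CPM followed the summed members most closely was Usp1, a deubiquitinase of DNA repair, with a Spearman correlation of 0.91 among 9417 genes ranked. Hmgn2 and Hmgb2, chromatin proteins, had 0.87 and 0.86, and Casp8ap2, which acts in histone mRNA processing, 0.86. Among the members themselves, the correlation with the sum of the others ran from 0.86 for Hist1h1d and 0.84 for Hist1h2ap down to 0.31 for Hist1h1c, -0.36 for Hist1h2bc and -0.43 for Hist3h2a. The groups share libraries, depths and cells of the same gates, and the values are descriptions.

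Between the libraries, summed members in cells with 4 or more were 1.27-fold higher in library 1 in T cells, 1.40-fold in NK cells and 1.49-fold in collagen-rich cells, and 0.94-fold in macrophages. Within T cells the value was 1.68-fold in regulatory and 1.09-fold in other T cells. Without Hist1h2ap, the log2 ratio of the libraries in T cells was 0.12 in place of 0.35. That gene stood at 2126 and 1036 CPM in T cells, 1961 and 842 CPM in NK cells and 538 and 173 CPM in collagen-rich cells of libraries 1 and 2, past the limit in each, and at 545 and 358 CPM in macrophages. Hist1h1b did not share it, with 615 and 768 CPM in T cells, and Hist1h2ae had 1069 and 906 CPM. In T cells with 4 or more, 5 of 55 members were past the limit in library 1 (2.09% of genes) and 0 in library 2 (1.9%). In NK cells these counts were 2 of 45 (1.1%) and 0 (0.779%), and in macrophages 0 of 36 (1.57%) and 1, Hist1h4h (1.26%). In collagen-rich cells they were 3 of 40 (1.76%) and 0 (2.36%).

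In T cells with 0, Hist1h2ap was again higher in library 1, at 39.8 and 18.4 CPM, while Hist1h1b at 3.04 and 10.3 CPM and Hist1h2ae at 10.1 and 26.5 CPM were higher in library 2. These T cells differ in kind, since 2442 of 2808 were naive-type in library 1 and 31 of 486 in library 2. In all, 4 of 31 members were past the limit in library 1 (7.65% of genes) and 2 in library 2 (17.4%). Among cells with 0 of the other types, NK cells had 1 of 8 members past the limit in library 1 (3.6% of genes) and 0 in library 2 (1.21%), macrophages 0 of 16 (2.48%) and 0 (1.2%), and collagen-rich cells 1 of 5 (2.39%) and 0 (1.15%). Free RNA would give 1.14 and 5.30 CPM of Hist1h1b and 1.93 and 6.51 CPM of Hist1h2ae in T cells of libraries 1 and 2. Hist1h2ap shares 93.1% of its 50-base windows with other transcripts in the models, against 43.2% for Hist1h2ae and 0.0% for Hist1h1b, and the median over members is 49.7%, so counts of single members with near-identical copies are uncertain. Which group each library holds is not known, and depth, mitochondrial share (medians of 3.98% and 2.09%), the mix of T cells and library cannot be told apart from the group.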

How the data were processed

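The authors deposited 1 matrix of raw UMI counts, 31053 genes by 12514 barcodes, whose barcode suffixes number 2 libraries; Cell Ranger 3.1.0 and the mm10 build are named in the submitters' processing notes. Further aligner settings, the annotation and the use of strand are unknown here. Cells with at least 200 genes, 500 UMIs and at most 10% mitochondrial UMIs were kept. Scrublet's own threshold marked 0 cells, so the 5% with the highest doublet scores in each library were removed (scanpy 1.11.5); cell types were gated on marker UMIs per 10000, with limits set after the marker distributions were seen. Member UMIs were summed by type, library and state, scaled to CPM, and given exact Poisson or conditional binomial intervals (Python 3.11.15, numpy 2.4.6, pandas 2.3.3, scipy 1.17.1). A group with 0 counts was set to a floor of 3 counts. The call of a change was tested on simulated data. Stem-loops and lengths come from GENCODE M21 models and promoters from RefSeq. The members, lists and splits were chosen with earlier results of these data known. Named members are the 30 with most UMIs, the 5 highest and 5 lowest ratios of a type, and members of the back-to-back pairs. Alternatives were other doublet, mitochondrial, depth, free RNA, weighting, division marker, fold and UMI limits.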

Additional observations from a re-analysis of the deposited data

Results flagged for a closer look

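Hist1h2bc went opposite ways in the same contrast. Its log2 ratio between cells with 4 or more and 0 Mki67 and Top2a UMIs was 2.34 and 1.93 in T cells and -2.10 and -1.24 in macrophages of libraries 1 and 2; the difference was not tested.

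Cells that fit no marker gate entered no comparison above, yet held histone mRNA in the same pattern. Those with 4 or more Mki67 and Top2a UMIs had 3863 CPM of summed members in library 1 and 2166 CPM in library 2, and those with 0 had 460 and 279 CPM. These cells held both Cd3d and Cd3e, at 540 and 307 CPM, and C1qa, at 402 and 891 CPM; the part of mixed cells was not tested.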

How the results depend on the processing

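All values here are log2 ratios or counts of members, and the cause of a shift was not tested. The summed difference between cells with 4 or more and 0 Mki67 and Top2a UMIs (T cells 4.07 and 4.03, NK cells 3.91 and 3.81, macrophages 3.21 and 3.22 in libraries 1 and 2) kept its direction with every limit on doublets, mitochondria, depth, free RNA and weighting that was run. In T cells of library 1 it was 3.91 with doublets kept, 4.11 with a mitochondrial limit of 5%, 4.13 with free RNA subtracted and 4.23 with 8 or more UMIs. In T cells of library 2 it was 4.15 with cells weighted equally, 4.21 with free RNA subtracted and 4.15 with 8 or more. In NK cells it was 3.59 thinned to 4000 UMIs, 3.72 weighted equally and 4.34 with 8 or more in library 1, and 3.73 thinned, 3.94 with free RNA subtracted and 3.96 with 8 or more in library 2. In macrophages it was 3.39 with free RNA subtracted and 3.35 with 8 or more in library 1, and 3.59 and 3.45 in library 2. With 4 or more UMIs per 10000, an alternative chosen after seeing the data, it was 4.31 and 4.16 in T cells, 4.49 and 3.98 in NK cells and 3.39 and 3.53 in macrophages. The free RNA estimate exceeded the measured Hist1h2ap in macrophages of library 2 with 0, so values with free RNA subtracted are uncertain there.

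Cells with 1 to 3 Mki67 and Top2a UMIs, set against 0, gave 0.0042 and 0.64 in T cells, -0.073 and 0.24 in NK cells and 0.28 and 0.16 in macrophages, with 0 of 31 and 3 of 18, 0 of 4 and 1 of 17, and 0 of 7 and 2 of 21 members higher, against 2.42% and 0.834%, 0.351% and 0.529%, and 0.248% and 0.619% of all genes. With them the collagen-rich cells of library 2 turned direction (-0.090). So did Hist1h2ae (-1.18) and Hist1h3f (-1.10) in NK cells of library 1 and Hist1h2bm (-0.91) in macrophages of library 2. The cells with 0 held only 7 UMIs of Hist1h3f and 12 of Hist1h2bm. Hist1h3c gave -0.87 in NK cells of library 1, where cells with 0 held 0 of its UMIs, so that sign comes from the floor of 3 counts. Thinning to 4000 UMIs, which leaves fewer UMIs to call on, left 23 of 28 members higher in T cells of library 1 (12% of all genes, thinned in a draw of their own), 4 of 4 and 23 of 25 in NK cells (2.85% and 4.62%) and 2 of 2 and 12 of 15 in macrophages (1.86% and 4.44%). A minimum of 10 UMIs gave 37 of 45 in NK cells of library 1 (5.09%) and 33 of 42 and 47 of 58 in macrophages (5.81% and 6.19%).

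Between libraries, the value in T cells with 4 or more (0.35) was 0.21 with doublets kept, 0.38 with the 5% limit, 0.23 thinned, 0.26 weighted equally and 0.12 without Hist1h2ap, also chosen after seeing the data. T cells with 0 (0.30) had 0.44 with free RNA subtracted. NK cells with 4 or more (0.48) had 0.53 with doublets kept and 0.26 without Hist1h2ap, and those with 0 (0.38) had 0.66 thinned. Macrophages with 4 or more (-0.09) had -0.0046 thinned and -0.26 without Hist1h2ap, those with 0 (-0.08) had 0.16 with free RNA subtracted, and collagen-rich cells with 0 (0.40) had -0.056 thinned.

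No paired analysis was possible because each group has 1 library and no library is tied to a group. Depth limits the rarer members: under 50 UMIs in a pair of groups no call was made, and NK cells of library 1 had only 22 cells with 4 or more.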
